A study of Mus musculus with 30 samples.

Results

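Late and early days after sciatic nerve transection (SNT) were compared in microglia from the lumbar spinal cord of C57BL/6J mice. The late arm held the 4 libraries from 4 and 7 days post injury (dpi), and the early arm held the 4 libraries from 1 and 2 dpi, with 2 libraries per day. These 8 libraries were chosen by their labels from 30 in all. No control entered the contrast, so the differences below are between times after the same injury. The 9 control libraries, from mice that were naive or received saline on a fixed or an escalating regimen, serve only as a reference range. The 6 libraries from the other nerve injuries and the 7 from morphine-treated mice entered no result here other than alternative fits and values named as theirs. Mice were perfused with PBS, the caudal lumbar cord was dissociated by hand, and RNA was taken with RNeasy Micro columns. Age, sex, the side of the cord and the animals behind a library are not given in the sources used here. The p-values therefore reflect only how far these libraries spread, which may be technical.

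Microglia are the macrophages that live in the brain and spinal cord. Cutting the sciatic nerve damages the distant axons of sensory and motor neurons whose central parts and cell bodies serve the lumbar cord, and microglia around them change shape, divide and alter their gene expression over the following days. Colony stimulating factor 1 released by injured neurons is known to drive their division, and purinergic receptors such as P2rx4 and P2ry12, interferon regulatory factors and chemokines are studied for their part in pain hypersensitivity.

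The cells were selected with magnetic beads against CD11b after myelin removal, and libraries were made by Smart-Seq2, which copies whole poly(A) transcripts into cDNA, followed by Nextera XT. CD11b is also carried by monocytes and neutrophils. Values were FPKM, a fragment count corrected for transcript length and library size, and the depth of the libraries is unknown. Between 8005 and 10352 genes reached 1 FPKM in a library. Of the 8 libraries, 3 held few genes: SNT 1 dpi replicate 1 (8005), SNT 2 dpi replicate 2 (8763) and SNT 7 dpi replicate 1 (8466), so 2 were early and 1 was late. The other 5 held between 9617 and 10352. The mean number was 9007 ± 783 early and 9550 ± 789 late (SD, n = 4 each; exact two-sided permutation test, p = 0.4, the smallest possible being 0.02857). The 10 most abundant genes took 31.1% of the summed FPKM early and 22.8% late (exact permutation p = 0.0571). Pearson's r between the 2 libraries of a day, across genes on the log2 scale, was 0.880 at 1 dpi, 0.837 at 2 dpi, 0.945 at 4 dpi and 0.763 at 7 dpi. Medians of most gene lists are therefore given with and without these 3 libraries, as are the differences of many of the genes named.

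**Figure D1:**
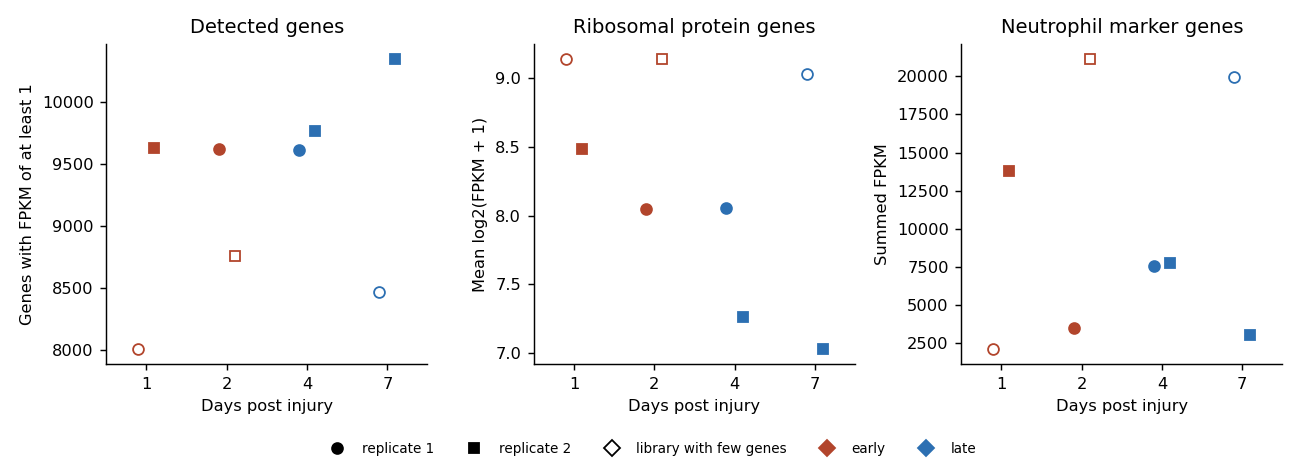
Genes with an FPKM of at least 1, the mean log2(FPKM + 1) of 62 ribosomal protein genes and the summed FPKM of neutrophil marker genes in each of the 8 libraries, by days post injury; circles are replicate 1, squares replicate 2, and open symbols the 3 libraries with few genes. The open symbols lie lowest in the first panel and highest in the second, at about 9 on the log2 scale.

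All 13 microglial markers on the list reached 1 FPKM in at least 2 libraries, and their summed FPKM was 8305 to 18154 early and 13300 to 16759 late. T and NK cell markers summed to 24.3 and 13.6 FPKM in the 2 libraries of 1 dpi and to 1.17 to 3.66 in the other 6. Of their 15 markers 2 were tested, and Cd3e, Cd3g, Cd8a and Cd247 were listed at 0 in all 8 libraries. Neutrophil markers were present, with 15 of 17 tested and a summed FPKM of 2091 to 21165 early and 3035 to 19982 late. Monocyte markers summed to 47.8 to 450 early and 256 to 891 late. Neuronal markers summed to 17.2 to 85.5 early and 9.20 to 232 late, with the highest value in SNT 7 dpi replicate 2. In bulk libraries of this kind, fewer cells of a type and less RNA per cell cannot be told apart.

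No gene passed the test between late and early days. Differences were fitted with limma on log2(FPKM + 1) in 10669 genes, with a mean for each day, and 0 genes had a Benjamini-Hochberg adjusted p under 0.05 in either direction, which is 0.0% of the genes tested. The lowest adjusted p was 0.533. Without adjustment, 568 genes had p under 0.05, with 383 higher late (3.59%) and 185 lower late (1.73%). The count of called genes was also 0 with other pseudocounts, filters and scalings. It was 3 when all 30 libraries shared the estimate of spread, and 3 in the fit of injury and control libraries without the 3 libraries with few genes. It was 4 without SNT 7 dpi replicate 1 and 2 without SNT 7 dpi replicate 2. In simulated data on the same 10669 genes, 0 of 200 genes changed by 1 or by 2 on the log2 scale were recovered, against 146 of 200 changed by 3 (73%), and 6 genes that had not been altered were called. Changes of the 2 smaller sizes were thus not recovered with 2 libraries per day. This was 1 run for each size, in which the residual spread of each gene was taken as its true spread.

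More genes had positive than negative differences. Of the 10669 genes, 7650 were higher late on the log2 scale (71.7%), and the median difference of all genes was 0.30. This split moved with the scaling: it was 53.8% positive with median-ratio scaling and 52.5% with quantile normalization, where the medians were 0.05 and 0.03, and 80.1% when each library was rescaled to the same sum. Gene lists below are therefore read against the median of all genes. The 4 late and 4 early libraries did not overlap in 453 genes, 379 of them higher late (3.55% of genes tested) and 74 lower late (0.694%). This imbalance was absent with quantile normalization, at 150 higher and 156 lower, and smaller with median-ratio scaling, at 177 and 140, and it was 547 and 61 when rescaled to the same sum. Without the 3 libraries with few genes, 1354 genes (12.7%) lay wholly higher and 527 (4.94%) wholly lower, a count that fewer libraries raise by construction. The total was 1431 without SNT 2 dpi replicate 1, 1186 without SNT 7 dpi replicate 1, 805 without SNT 7 dpi replicate 2, 770 without SNT 4 dpi replicate 2 and 708 without SNT 4 dpi replicate 1.

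The 15 genes with the lowest p in each direction, among genes whose mean reached 5 FPKM in one arm or the other, are described next, and none passed the threshold. Their limma adjusted p was 0.775 in each case, except 0.533 for Taf10. Lower late were Taf10, Mir6236, Erf, Rps28, Tnfrsf14, Rps26, Tmem256, Rps29, Ccl4, Rpl38, Rplp2-ps1, Tmsb10, Hist1h2ad, Hist1h2ab and Rpl37rt. Of these 15, 6 are ribosomal protein genes or close copies of one, and 2 are histone H2A genes. Higher late were Rpl30, Gpr65, Tmco6, Ccr1, Cd177, Trmt10c, Gemin2, Selo, Igsf6, D17H6S56E-5, Ss18, Cables2, Lypla1, Serinc1 and Ltf.

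Erf, a repressor of the ETS family that acts downstream of ERK signalling, measured 13.8 and 13.3 FPKM at 1 dpi and 7.87 and 12.7 at 2 dpi. It measured 3.35 and 3.33 at 4 dpi and 1.22 and 0.667 at 7 dpi. The lowest early library thus lay above the highest late one, and the day means were in falling order. The difference was -2.13 (SE 0.51) on the log2(FPKM + 1) scale, and -1.84 without the 3 libraries with few genes. Its limma adjusted p was 0.775 here and 0.037 in the fit of all 30 libraries, with a range of 0.037 to 1 over the alternatives. Erf also varied widely among controls, from 0.708 to 13 FPKM. These fell into 0.848 and 0.708 FPKM in the naive libraries and 3.11 to 13 in the saline ones. Tmsb10 was split likewise, at 9.91 and 15.4 FPKM naive and 27.7 to 145 saline, as was Cst3. The control ranges given here pool both kinds of control.

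Tnfrsf14, the receptor HVEM of the tumour necrosis factor receptor family, measured 14.2 and 10.2 FPKM at 1 dpi and 7.72 and 10.3 at 2 dpi. At 4 dpi it measured 1.88 and 1.41, and at 7 dpi it was listed at 0 in replicate 1 and measured 2.80 in replicate 2. The arms did not overlap. The difference was -2.33 (SE 0.57), and -1.73 without the 3 libraries. Its limma adjusted p was 0.0321 in the fit of all 30 libraries and 0.0321 to 1 over the alternatives, and controls ranged from 0.768 to 9.82 FPKM. The other gene called in the fit of all 30 libraries was Gm9855, listed at 0 in 3 of 4 early libraries and between 3.08 and 7.21 FPKM late.

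Ccl4, an inflammatory chemokine of myeloid cells, measured 89.9 and 57.9 FPKM at 1 dpi, 28.7 and 61.6 at 2 dpi, 11 and 22.8 at 4 dpi, and 20.9 and 19.3 at 7 dpi. Each early library lay above each late one, although SNT 2 dpi replicate 1 exceeded the highest late library by only a few FPKM. The difference was -1.57 (SE 0.43), and -1.22 without the 3 libraries. The 9 controls spanned 10.7 to 49.2 FPKM, so the early values of 3 libraries lay above them and the late values lay within them. Ccl5, another inflammatory chemokine, measured 12.1 and 13.9 FPKM at 1 dpi, 5.41 and 7.66 at 2 dpi, 1.05 and 5.38 at 4 dpi, and 0.537 and 4.87 at 7 dpi. Its arms did not overlap either, but the nearest libraries of the arms, at 5.38 and 5.41, were nearly level.

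Among chemokines and their receptors negative differences were more common than the 28.3% of all genes, though members differed in sign. Of 17 tested, 0 were called, 6 had positive and 11 negative differences, and the median was -0.15 against 0.30 for all genes. It was -0.46 against 0.05 with median-ratio scaling and -0.30 against 0.03 with quantile normalization. Without the 3 libraries 8 were positive and 9 negative, with a median of -0.03 against 0.16. In 2 of the 17 the late libraries lay wholly below the early ones (0.694% of all genes), and in 1, Ccr1, wholly above (3.55% of all genes), a share near the background. Ccr1, a receptor for several of these chemokines on myeloid cells, measured 0.627, 8.05, 2.84 and 4.44 FPKM early and 11.4, 17.6, 13.3 and 13.9 late, with a difference of 1.83 (SE 0.59). Controls ranged from 5.73 to 59.7 FPKM, so 3 of 4 early libraries lay below them. Ccl2, a monocyte attractant, was listed at 0 in 1 library of each arm and reached 5.96 FPKM early and 19.7 late, and its difference of 0.06 (SE 0.84) was negative under median-ratio (-0.19) and quantile (-0.28) scaling. Ccl12 stood at 584 FPKM in SNT 7 dpi replicate 2 against 13.4 to 69.7 in the other 7 libraries. It measured 103 to 633 FPKM after chronic constriction and 20.8 to 81.3 in the saline libraries. In the naive libraries Ccl12 measured 90.8 and 126 FPKM, and with fixed morphine 124 to 405, so values above the saline ones were not particular to injury. Xcl1, a chemokine made mainly by T and NK cells, measured 8.15 and 1.37 FPKM at 1 dpi and was listed at 0 from 2 dpi on and in the 9 controls. The T and NK cell markers given above were likewise highest at 1 dpi, with a median of -2.19 from 1 to 2 dpi over the 2 tested, and their part in the values of Xcl1 and Ccl5 was not tested.

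Among genes with wholly lower late values were also Cdkn1a, Lgals1 and Tmem256. Cdkn1a, which encodes the cyclin-dependent kinase inhibitor p21, measured 18.5, 5.55, 6.32 and 8.30 FPKM early and 1.27, 4.07, 1.79 and 5.02 late. Its difference was -1.37 (SE 0.58), and -0.75 without the 3 libraries. Lgals1, a galectin, measured 32.2, 14.4, 12.2 and 36.5 FPKM early and 7.92, 4.57, 11.1 and 5.42 late. Tmsb10, a small actin-binding protein, did overlap: its lowest early value, 41.7 FPKM in SNT 2 dpi replicate 1, lay below the highest late one, 56.4.

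**Figure D2:**
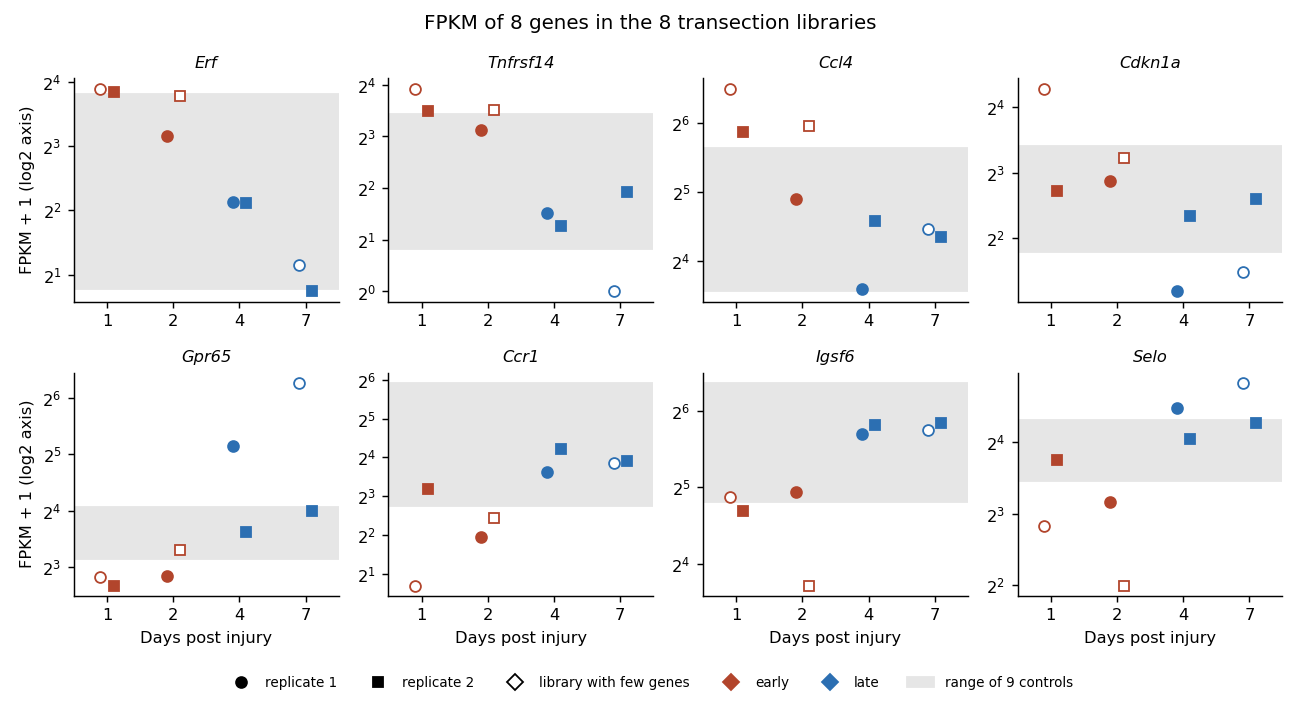
FPKM + 1 on a log2 axis in each of the 8 libraries by days post injury for 4 genes lower late (top) and 4 genes higher late (bottom); circles are replicate 1, squares replicate 2, open symbols the 3 libraries with few genes, and grey bands the range of the 9 controls. The 4 late libraries do not overlap the 4 early ones in any of the 8 genes, and none passed the test.

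Among genes higher late, Gpr65, a proton-sensing receptor of immune cells, measured 6.10 and 5.4 FPKM at 1 dpi and 6.15 and 8.95 at 2 dpi. It measured 34.4 and 11.3 at 4 dpi and 76.0 and 15 at 7 dpi. Early libraries were tightly grouped and late ones spread widely, with the highest value in SNT 7 dpi replicate 1, a library with few genes. The difference was 1.84 (SE 0.56), and 1.5 without the 3 libraries. Controls lay between 7.86 and 15.7 FPKM, so 3 early libraries were below them and 2 late ones above.

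Igsf6, an immunoglobulin superfamily membrane protein, had even late values: 50.9, 55.4, 52.8 and 56.5 FPKM, against 28.2, 24.8, 29.6 and 12.1 early. The difference was 1.23 (SE 0.41), and 0.97 without the 3 libraries. Both arms fell within or below the control range of 26.9 to 81.7 FPKM. Selo, a mitochondrial pseudokinase that transfers AMP to proteins, measured 6.14, 12.4, 8.00 and 3.00 FPKM early and 21.3, 15.5, 27.5 and 18.2 late, and its difference was 1.47 (SE 0.48), or 0.81 without the 3 libraries.

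Several housekeeping genes were also separated. Trmt10c, a subunit of mitochondrial RNase P, measured 5.17, 8.20, 4.05 and 2.60 FPKM early and 10.1, 15, 26.1 and 12.6 late. Gemin2, part of the complex that assembles spliceosomal particles, was listed at 0 in SNT 1 dpi replicate 1 and measured up to 2.67 FPKM early and 3.77 to 11.3 late. Ss18, a subunit of BAF chromatin remodellers, Lypla1, a depalmitoylating enzyme, and Serinc1, a membrane protein of the serine incorporator family, likewise had 4 late libraries above 4 early ones. Without the 3 libraries their differences were 0.79 (Ss18), 1.08 (Lypla1) and 0.80 (Serinc1), against 1.44, 1.64 and 1.26 with them. Arms overlapped for Tmco6, Cables2, D17H6S56E-5 and Ltf.

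Genes of microglial identity showed no called difference. Of 29 homeostatic genes tested, 22 had positive and 7 negative differences with a median of 0.35, close to the 0.30 of all genes, and without the 3 libraries 13 were positive, 16 negative and the median was -0.11. P2ry12, the purinergic receptor by which microglia sense ATP and ADP, measured 689, 899, 1114 and 562 FPKM early and 1243, 1341, 953 and 1053 late, with a difference of 0.53 (SE 0.43), or 0.27 without the 3 libraries. Its arms overlapped. Tmem119, a surface marker of microglia, measured 262 to 1358 FPKM early and 890 to 1345 late. Its difference was 0.46 (SE 0.53) and turned to -0.13 without the 3 libraries.

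Cx3cr1, the fractalkine receptor, measured 345 to 1439 FPKM early and 552 to 1266 late, with a difference of 0.27 (SE 0.52) that was -0.12 without the 3 libraries and -0.07 with median-ratio scaling. Csf1r, the receptor through which colony stimulating factor 1 acts, measured 469 to 3103 FPKM early and 1195 to 2691 late. For Tmem119, Cx3cr1 and Csf1r the lowest early value was that of SNT 2 dpi replicate 2. Ltc4s, which makes leukotriene C4, was among the 7 with a negative difference, at 326, 343, 170 and 397 FPKM early and 128, 135, 205 and 138 late (difference -0.98, SE 0.40).

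Of 28 genes linked to microglia in pain after nerve injury, 22 had positive and 6 negative differences with a median of 0.44, and 0.14 without the 3 libraries. P2rx4, the ATP-gated channel known for its part in pain hypersensitivity, measured 22.5, 24.9, 19.0 and 6.49 FPKM early and 35.4, 31.8, 17.2 and 50.2 late (difference 0.90, SE 0.48). Its arms overlapped. Irf1, an interferon regulatory factor, measured 2.11 and 5.71 FPKM in the 2 early libraries with few genes and 22.2 and 25.8 in the other early ones, beside 22.6 to 35.7 late, and its difference of 1.5 (SE 0.63) was 0.29 without the 3 libraries.

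Irf8, which controls microglial activation after nerve injury, measured 41.4 to 160 FPKM early and 97.2 to 172 late, and its difference of 0.22 was -0.15 without the 3 libraries and -0.11 with median-ratio scaling. Aif1, the gene of the microglial marker Iba1, measured 739, 555, 361 and 770 FPKM early and 345, 284, 520 and 295 late (-0.73, SE 0.42). Itgam, which encodes CD11b, measured 49.1 to 342 FPKM early and 66.3 to 450 late. The selection antigen itself thus varied widely within each arm.

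Inflammatory cytokines gave 16 positive and 3 negative differences in 19 genes, with a median of 0.44 and 0 called. They gave 12 and 7 without the 3 libraries with a median of 0.21, and the median was 0.06 with the number of detected genes as a covariate. Tnf, the cytokine that signals through TNF receptors, stayed low, at 0.255, 1.07, 0.716 and 0.461 FPKM early and 1.16, 4.24, 2.84 and 2.73 late. Its arms did not overlap, though the nearest libraries, at 1.07 and 1.16 FPKM, were nearly level, and its difference was 1.16 (SE 0.49). It was the 1 gene of these 19 whose late libraries lay wholly above, near the 3.55% of all genes. Il1b, the gene of interleukin-1 beta, measured 3.03 to 12 FPKM early and 2.04 to 6.54 late (-0.70, SE 0.57). Ccl4 and Tnf, both targets of NF-kappaB in macrophages, thus had differences of opposite sign in the same libraries.

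Most genes of other microglial states had overlapping arms. Apoe, a lipid carrier, measured 978 to 1776 FPKM early and 1103 to 2714 late, and Spp1, the gene of osteopontin, 6.07 to 13 early and 3.78 to 33.9 late, with a difference of 0.30 (SE 0.54) that was -0.09 with quantile and 0.00 with median-ratio scaling. Of 28 disease-associated genes 18 were positive and 10 negative, with a median of 0.21 that was 0.04 without the 3 libraries, -0.11 with median-ratio and -0.02 with quantile scaling. In 1 of the 28 the late libraries lay wholly above the early ones, near the 3.55% of all genes. Lilrb4a, an inhibitory receptor, measured 1.09, 7.05, 3.07 and 11.2 FPKM early and 10.9, 13.4, 29.8 and 16.0 late, and its difference was 1.68 (SE 0.58). Cst3, the cystatin C gene, was very abundant at 46190 to 95120 FPKM early and 16910 to 66550 late. Ctss, the lysosomal protease cathepsin S, measured 6688 to 7402 FPKM early and 5103 to 8472 late, and its difference of -0.0009 was 0.59 with quantile normalization and 0.21 when rescaled to the same sum. Atf3, a stress transcription factor, measured 1.68 to 7.76 early and 3.11 to 18.8 late, and its difference of 0.64 was -0.12 without the 3 libraries. Penk, an opioid precursor, measured at most 1.57 FPKM early and 0.396 to 8.79 late.

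Histone genes of the Hist clusters were the group with the lowest median. This group was formed after their values were seen, so it is a description with no test. Canonical histone genes are transcribed mainly during DNA replication, and most of their messenger RNAs lack a poly(A) tail, whereas Smart-Seq2 primes on poly(A). Of 61 such genes 24 passed the filter and were tested, and 23 of them had negative differences. The median was -1.02 against 0.30 for all genes, and the late libraries lay wholly below the early ones in 7, against 0.694% of all genes. Some, such as Hist1h2ae at no more than 0.835 FPKM late, passed the filter through early libraries only. For genes this low the filter favoured lower late values, so no excess is read from these counts. Without the 3 libraries with few genes the median was -0.81 with 22 negative, and leaving out 1 library at a time it ranged from -1.21 to -0.84.

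Hist1h2ab measured 7.20 and 12.2 FPKM at 1 dpi, 2.51 and 7.49 at 2 dpi, 1.44 and 0.870 at 4 dpi, and 0.914 and 1.06 at 7 dpi. Hist1h2ad measured 8.21, 13.4, 2.90 and 7.37 FPKM early and 1.39, 1.21, 1.21 and 1.15 late, and Hist1h4d, a histone H4 gene, 6.67, 16.3, 4.94 and 20.9 early and 2.53, 2.48, 2.2 and 2.27 late. These 3 genes were level over the 4 late libraries, and SNT 2 dpi replicate 1 was the lowest early library in each. Hist1h2ae was high at 1 dpi alone, at 11.9 and 11.4 FPKM, then 0.147 and 2.18 at 2 dpi and at most 0.835 late. Histone values within the control group spread just as widely, from 1.23 to 20.4 FPKM for Hist1h2ab and from 2.30 to 31.4 for Hist1h4d. The H2A genes are near-identical copies: local alignment of the transcripts of 6 of them gave 97.5% to 99.5% identity over 384 to 450 bases, so the split of fragments between them is uncertain.

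The promoters of 3 H2A genes are shown because these genes had like values across the 8 libraries, with copies of 2 promoter motifs in capitals. The motifs searched were CCAAT, the box that binds NF-Y, and TATAAA, the TATA box, each on both strands (ATTGG and TTTATA on the other). Neither motif contains the other. The sequences are from RefSeq on GRCm38.p6, in gene orientation, from 250 bases before to 50 bases after the gene's start. They lie at chr13:23574131-23574430 on the plus strand (Hist1h2ad, listed by RefSeq as H2ac7), chr13:22042900-22043199 on the minus strand (Hist1h2ag, H2ac11) and chr13:21716162-21716461 on the plus strand (Hist1h2ai, H2ac13).
Hist1h2ad: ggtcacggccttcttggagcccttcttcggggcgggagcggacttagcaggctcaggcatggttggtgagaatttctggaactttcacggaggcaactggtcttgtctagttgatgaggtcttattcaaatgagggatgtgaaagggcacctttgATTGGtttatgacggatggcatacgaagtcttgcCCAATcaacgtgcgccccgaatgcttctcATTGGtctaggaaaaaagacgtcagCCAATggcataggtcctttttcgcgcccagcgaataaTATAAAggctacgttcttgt
Hist1h2ag: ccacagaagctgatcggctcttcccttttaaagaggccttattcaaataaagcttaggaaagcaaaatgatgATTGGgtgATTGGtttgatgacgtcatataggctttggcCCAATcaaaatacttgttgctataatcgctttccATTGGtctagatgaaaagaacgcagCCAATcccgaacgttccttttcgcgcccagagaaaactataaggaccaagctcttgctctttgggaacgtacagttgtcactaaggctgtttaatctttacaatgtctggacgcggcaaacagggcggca
Hist1h2ai: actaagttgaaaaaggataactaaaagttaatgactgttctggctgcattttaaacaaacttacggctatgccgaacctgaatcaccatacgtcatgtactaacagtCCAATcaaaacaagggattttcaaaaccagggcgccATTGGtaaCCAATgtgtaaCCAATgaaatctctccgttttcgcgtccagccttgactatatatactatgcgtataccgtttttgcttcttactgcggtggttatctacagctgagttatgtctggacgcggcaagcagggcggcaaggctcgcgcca
Of the 3, each holds at least 4 copies of the CCAAT box on one strand or the other, and 1, Hist1h2ad, holds TATAAA. That TATAAA lies within the 50 bases after the annotated start, so it is not read as the TATA box of that start. RefSeq gave 23 promoters for 22 of the 24 tested histone genes, and 22 held CCAAT (95.7%) against 37.4% of all 32851 promoters of that length, and 11 held TATAAA (47.8%) against 13.6%. These matches describe the letters in the window and were not related to the time after injury. Hist1h2ag measured 5.93, 10.5, 1.44 and 8.43 FPKM early and 0.764, 0.9, 1.80 and 1.65 late, and Hist1h2ai 6.77, 10.2, 1.44 and 6.04 early and 0.520, 1.14, 1.17 and 1.17 late. In both, SNT 2 dpi replicate 1 was again the lowest early library, and for Hist1h2ag it lay below 2 late ones.

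DNA replication genes had differences of the other sign. Of 23 tested, 20 had positive and 3 negative differences and the median was 0.67, and without the 3 libraries 21 were positive with a median of 0.50 against 0.16 for all genes. Their mean level was 1.61 to 2.29 early and 2.32 to 3.18 late on the log2(FPKM + 1) scale, so the arms did not overlap, though they came close. None was called. Mcm3, Mcm4, Mcm6 and Mcm7 are subunits of the MCM helicase that opens DNA at replication origins. Mcm6 measured 2.92, 3.42, 6.14 and 1.15 FPKM early and 5.21, 2.83, 11.2 and 29.7 late, and Mcm3 5.86, 15.3, 19.5 and 2.82 early and 16.2, 17.0, 30.1 and 39.0 late. For both the 2 highest libraries were those of 7 dpi. Mcm4 alone of the 23 had no overlap, near the 3.55% of all genes that lay wholly higher late. It measured at most 2.82 FPKM early and 3.22, 3.40, 4.01 and 14.6 late, and Mcm7 measured 1.08 to 6.95 early and 4.11 to 13.5 late.

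Mitotic genes gave 16 positive and 4 negative differences in 20 tested, with a median of 0.56, or 0.35 without the 3 libraries. Their levels were low. Prc1, which bundles spindle microtubules, measured 0 to 1.07 FPKM early and 1.26 to 2.55 late, and Kif11, a spindle motor, 0 to 0.387 early and 0.450 to 1.39 late. In 3 of the 20 the arms did not overlap, each time with the late libraries higher, against 3.55% of all genes: Prc1, Kif11 and Tpx2. Kif11 stayed under 1 FPKM in each early library, so only late libraries took it past the filter, and Prc1 barely reached 1 FPKM early. For genes this low the filter favoured higher late values, so no excess is read from this count. Mki67, the usual proliferation marker, did not reach 1 FPKM in 2 libraries and was not tested. Replication and mitosis genes thus had positive medians in the same libraries in which histone genes had a negative one, a difference in sign that was not tested.

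**Figure D3:**
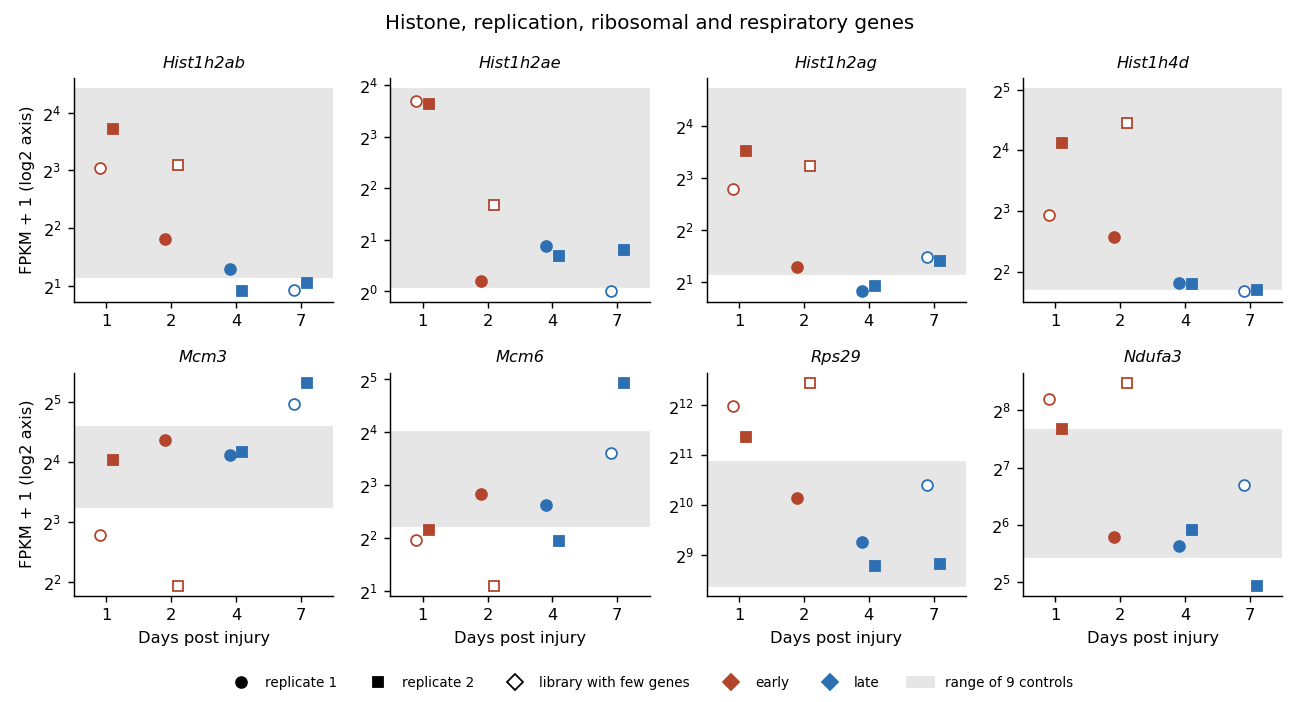
FPKM + 1 on a log2 axis in each of the 8 libraries by days post injury for 4 histone genes (top) and for 2 replication, 1 ribosomal protein and 1 respiratory chain gene (bottom); symbols and grey bands as for the other genes plotted by day. The 4 histone genes are near or below the bottom of the control range in the late libraries, and Mcm3 and Mcm6 are highest at 7 dpi.

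Genes of the ribosome and the respiratory chain were lower late in most members, and their levels varied with single libraries. Of 62 ribosomal protein genes, 59 had negative differences, 0 were called, and the median was -0.84. Without the 3 libraries 61 of 62 were negative with a median of -0.79, and with the number of detected genes as a covariate the median was -0.34 with 47 negative. Their mean log2(FPKM + 1) was 9.15, 8.48, 8.05 and 9.14 early and 8.05, 7.26, 9.04 and 7.02 late. The 3 libraries with few genes had the 3 highest levels, so the arms overlapped through SNT 7 dpi replicate 1. Rps29 measured 4041, 2652, 1141 and 5620 FPKM early and 616, 441, 1350 and 453 late (-2.17, SE 0.58), and Rps28, Rps26 and Rpl38 had differences of -2.29, -2.07 and -2.04.

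Rpl30 had a positive difference: it was listed at 0 in the 4 early libraries and in SNT 7 dpi replicate 1, and at 37.5, 22.3 and 15.7 FPKM in the other 3. Those zeros were not particular to the early days. Among the controls Rpl30 measured 18.3, 45.3 and 65.7 FPKM in some and was listed at 0 in the others, as it was in most other injury and morphine libraries. The 4 genes called without SNT 7 dpi replicate 1 were Gngt2, Rpl30, Rps27 and Slirp. Of these, Gngt2, Rps27 and Slirp were listed at 0 in SNT 7 dpi replicate 2 and at 32.9 FPKM or more in the other 7 libraries. Outside transection, Gngt2 was listed at 0 in all libraries of chronic constriction and fixed morphine. It was also at 0 in naive replicate 2, replicate 2 of spared nerve injury and replicate 1 of escalating morphine. In the remaining control, injury and morphine libraries it measured 75.1 to 183 FPKM. The 2 called without SNT 7 dpi replicate 2 were Atp6v0c-ps2 and Lars2. Lars2, a mitochondrial leucyl-tRNA synthetase, measured 236, 192, 179 and 1143 FPKM early and 20.2, 28.1, 23.4 and 1030 late. It was therefore low in 3 late libraries and high in the fourth, SNT 7 dpi replicate 2. Lars2 measured 26.1 to 278 FPKM in the saline libraries and 708 to 5148 in the naive, other nerve injury and fixed morphine libraries. In the escalating morphine libraries it measured 982, 246 and 401 FPKM. What sets these libraries apart was not tested. In all, 72 genes with a median of at least 10 FPKM were listed at 0 in at least 1 of the 8 libraries.

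Of 49 genes of oxidative phosphorylation, 39 had negative and 10 positive differences, with a median of -0.58, or -0.26 with 36 negative without the 3 libraries. Ndufa3, a complex I subunit, measured 291, 204, 54.3 and 357 FPKM early and 48.6, 59.2, 103 and 29.6 late (-1.74, SE 0.56). Cox8a, a complex IV subunit, measured 587, 494, 295 and 1042 early and 207, 205, 391 and 140 late (-1.31, SE 0.48). For both, SNT 2 dpi replicate 1 was the lowest early library and SNT 7 dpi replicate 1 the highest late one. Day means were in falling order in 10 of the 49, against 3.43% of all genes.

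These groups consist of genes with short transcripts, and the difference between arms varied with transcript length over all genes. By the longest annotated transcript, known for 96.2% of genes tested, the median difference was -0.71 for the 218 genes under 750 bases, of which 191 were negative, and -0.11 for the 1070 genes from 750 to under 1500 bases. It was 0.30, 0.42, 0.37 and 0.27 in the 4 classes of longer transcripts. Without the 3 libraries with few genes the medians were -0.49 and -0.10 in the 2 short classes and 0.11 to 0.25 in the longer ones. In the shortest class the libraries deviated from their common mean by 0.71, 0.43, -0.53 and 1.11 early and by -0.34, -0.46, 0.30 and -0.95 late. SNT 2 dpi replicate 1 therefore went with the late libraries and SNT 7 dpi replicate 1 with the early ones. The median length was 774 bases for the histone genes and 1232 for oxidative phosphorylation, against 3275 for all genes. The part of transcript length in the differences of these groups was not tested.

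**Figure D4:**
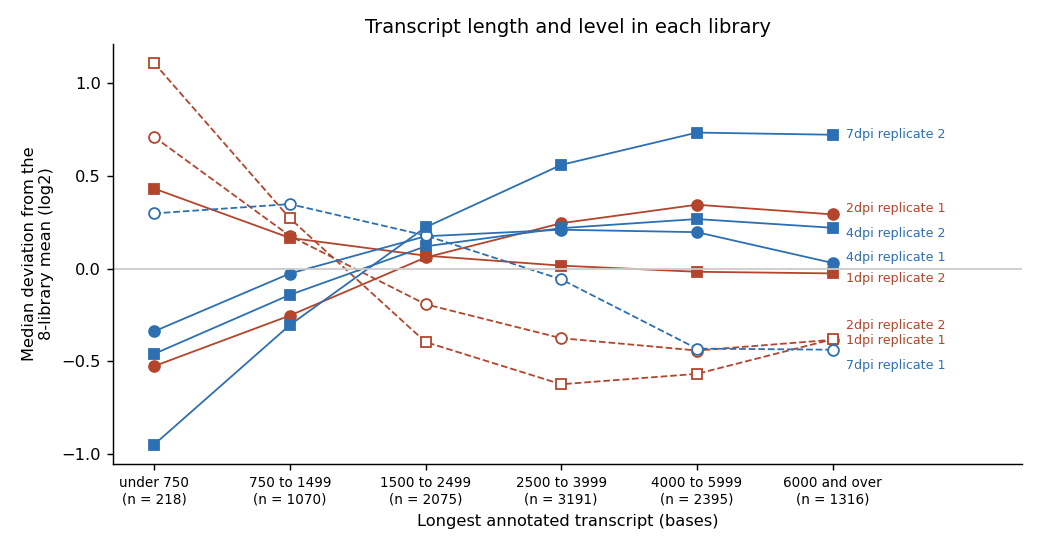
Median deviation of each library from the mean of the 8 libraries, on the log2(FPKM + 1) scale, for genes in 6 classes of transcript length; lines join the classes of a library, early libraries in red and late in blue, and dashed lines with open symbols are the 3 libraries with few genes. In the class under 750 bases the deviations run from -0.95 in SNT 7 dpi replicate 2 to 1.11 in SNT 2 dpi replicate 2.

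Metabolic and secretory genes had mostly positive differences, as did 71.7% of all genes, and 0 were called. Glycolysis and hypoxia genes gave 22 positive and 1 negative difference in 23, with a median of 0.57, or 0.26 without the 3 libraries. Ldha, lactate dehydrogenase A, measured 102, 106, 95.6 and 58.3 FPKM early and 131, 132, 163 and 206 late (0.81, SE 0.36). It was the 1 gene of these 23 whose arms did not overlap, near the 3.55% of all genes that lay wholly higher late. Pkm, pyruvate kinase, measured 33.7 to 169 early and 135 to 331 late. Bnip3, a mitophagy receptor induced by hypoxia, was at 1.79 FPKM in SNT 1 dpi replicate 1 and at 14.7 to 27.9 in the other 7 libraries.

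Lysosomal genes gave 21 positive and 5 negative differences in 26, with a median of 0.42, or 0.07 without the 3 libraries against 0.16 for all genes. With median-ratio scaling 15 were positive and 11 negative. Asah1, acid ceramidase, measured 120, 132, 193 and 71.8 FPKM early and 260, 240, 178 and 244 late (0.90, SE 0.40). Lamp1, a lysosomal membrane protein, measured 175 to 578 early and 544 to 587 late, and Gaa, acid alpha-glucosidase, 5.45 to 38.2 early and 19.9 to 61.6 late. In 3 of the 26 the late libraries lay wholly above, against 3.55% of all genes.

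Genes of the endoplasmic reticulum stress response gave 18 positive and 3 negative differences in 21, with a median of 0.41, or 0.39 without the 3 libraries, and 13 and 8 with median-ratio scaling. Xbp1, a transcription factor of that response, measured 60.0, 72.8, 67.8 and 31.8 FPKM early and 90.7, 106, 95.2 and 140 late (0.93, SE 0.39), without overlap. It was the 1 of these 21 genes whose late libraries lay wholly above, against 3.55% of all genes. Hspa5, the chaperone BiP, stood at 572 FPKM in SNT 7 dpi replicate 2 and at 35.5 to 163 in the other 7. Pdia3, a disulfide isomerase of the class I peptide loading complex, was likewise highest there, at 612 FPKM against 77.9 to 223. After chronic constriction Hspa5 measured 284 to 538 FPKM, and in the saline libraries 98.7 to 182. In the naive libraries it measured 204 and 351 FPKM, and with fixed morphine 305 to 513, so high values were not particular to injury. H2-D1, a class I molecule, measured 390, 440, 439 and 167 FPKM early and 507, 478, 631 and 1017 late, without overlap. It was the 1 of 18 class I genes whose late libraries lay wholly above, against 3.55% of all genes. Class I genes together had 15 positive and 3 negative differences in 18 with a median of 0.41, which was 0.10 with median-ratio scaling. Leaving out the 3 libraries gave 11 and 7 with a median of 0.13, against 0.16 for all genes. Class II genes had 6 and 7 in 13 with a median of 0.00, and 3 and 10 with a median of -0.19 without the 3 libraries.

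Interferon genes were near the median of all genes: 20 were positive and 8 negative in 28, with a median of 0.20 that was 0.06 without the 3 libraries, -0.05 with median-ratio and -0.08 with quantile scaling. Ifi204, an interferon-induced DNA sensor, measured 0.178, 3.24, 10.2 and 2.66 FPKM early and 14.3, 11, 10.1 and 7.51 late, and Usp18, a brake on interferon signalling, 0 to 4.27 early and 3.55 to 8.21 late. Both had overlapping arms. Immediate early genes, which respond within minutes to tissue handling, gave 12 positive and 8 negative differences in 20 with a median of 0.27, and 10 and 10 with a median of 0.0052 without the 3 libraries. Glucocorticoid-induced genes gave 14 and 6 in 20 with a median of 0.16, or -0.15 with median-ratio scaling, and 9 and 11 with a median of -0.19 without the 3 libraries. Arrdc2, one of the latter, was listed at 0 in SNT 1 dpi replicate 1, measured 1.10 to 2.2 FPKM in the other early libraries and 3.11 to 12.5 late.

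Markers of neutrophils and monocytes had high medians that rested on few libraries. Of 15 neutrophil markers, 13 had positive and 2 negative differences with a median of 0.89, and without the 3 libraries 8 were positive, 7 negative and the median was 0.02. Ngp, a granule protein, measured 29.6 FPKM in SNT 1 dpi replicate 1, 493 to 755 in the other early libraries and 600 to 1948 late. Chil3, a chitinase-like protein of neutrophils and monocytes, measured 0.443 FPKM in SNT 1 dpi replicate 1, 113 to 176 in the other early libraries and 109 to 566 late. Ltf, lactoferrin, measured 17.6, 157, 126 and 46.4 FPKM early and 161, 139, 272 and 346 late, below the 210 to 960 of the controls in 6 of 8 libraries.

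Cd177, a surface protein of neutrophils, did separate the arms, at 6.13, 26.4, 28.4 and 6.67 FPKM early and 35.1, 29.3, 63.8 and 57.3 late. Its difference of 1.64 (SE 0.53) was 0.49 without the 3 libraries, since the 2 lowest values were theirs. Of 12 monocyte markers, 11 were positive with a median of 0.91, or 0.36 without the 3 libraries. Hp, haptoglobin, measured 21, 51.0, 32.9 and 39.9 FPKM early and 53.6, 64.3, 128 and 64.4 late without overlap. Anxa1, annexin A1, an anti-inflammatory protein abundant in neutrophils, measured 21.8, 70.1, 40.8 and 62.8 FPKM early and 70.9, 96.5, 155 and 104 late, also without overlap. The part of neutrophil and monocyte RNA in the differences of such genes was not tested.

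**Figure D5:**
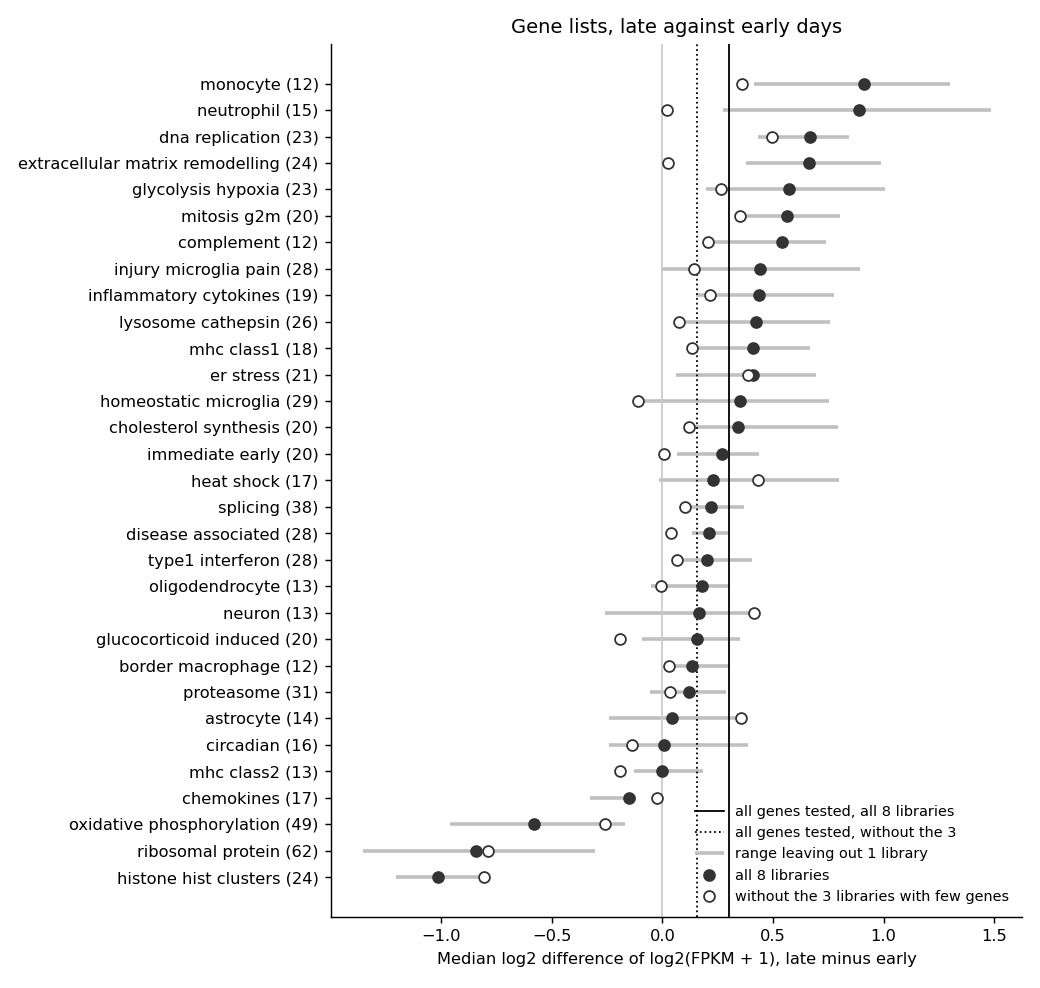
Median difference of log2(FPKM + 1), late minus early, of each gene list with at least 10 genes tested (number in parentheses), in all 8 libraries (filled) and without the 3 libraries with few genes (open), with grey bars for the range when 1 library is left out and vertical lines for the median of all genes. Histone, ribosomal protein and oxidative phosphorylation genes lie lowest in both, and the neutrophil median moves from 0.89 to 0.02.

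The order over the 4 days was tested as a straight line over the rank of the day, and 0 genes were called, with 753 at an unadjusted p under 0.05. This count was 391 when all 30 libraries shared the estimate of spread, 59 in the fit of injury and control libraries without the 3 libraries with few genes, 8 without SNT 7 dpi replicate 1, and 1 in the fit of 23 injury and control libraries. Day means were in rising order in 1366 genes (12.8%) and in falling order in 366 (3.43%), but in 656 and 693 with quantile normalization and in 830 and 687 with median-ratio scaling. The total of 1732 was 2653 without SNT 7 dpi replicate 1, 1141 without SNT 2 dpi replicate 2 and 970 without SNT 2 dpi replicate 1. Erf, Tnfrsf14, Hist1h2ab, Hist1h2ad, Hist1h2ae and Hist1h4d were among those in falling order. Il4i1, an amino acid oxidase of myeloid cells, measured 10.3 and 5.58 FPKM at 1 dpi, was listed at 0 and measured 1.93 at 2 dpi, and was listed at 0 at 4 and 7 dpi. Grwd1, a ribosome assembly factor, measured 19.6 and 20.6 FPKM at 7 dpi and at most 7.85 before.

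The F-test over the 4 days called 1 gene (0.00937% of those tested), Taf10, a subunit of the general transcription factor TFIID (limma adjusted p = 0.00972). Taf10 was listed at 0 in both libraries of 4 dpi and measured 26.1 to 52.4 FPKM in the other 6, and it was listed at 0 in at least 1 control too. It was therefore also called lower at 4 than at 2 dpi and higher at 7 than at 4 dpi. The F-test called 0 genes without any one of 5 libraries (both of 1 dpi, SNT 2 dpi replicate 2 and both of 4 dpi), 4 without SNT 7 dpi replicate 2 and 11 without SNT 7 dpi replicate 1.

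Between neighbouring days, 0 genes were called from 1 to 2 dpi (70 at an unadjusted p under 0.05), 2 lower from 2 to 4 dpi (0.0187%) and 1 higher from 4 to 7 dpi (0.00937%). Besides Taf10, the step from 2 to 4 dpi called Mir6236, listed at 0 in 6 libraries and at 14 and 36.1 FPKM at 2 dpi. That count was 5 without SNT 7 dpi replicate 1, 4 without SNT 7 dpi replicate 2, 1 without SNT 1 dpi replicate 2, and 0 without any other library, SNT 1 dpi replicate 1 included. The count from 1 to 2 dpi was 2 without either library of 7 dpi. The count from 4 to 7 dpi was 0 without either library of 4 dpi and 11 without SNT 7 dpi replicate 1. Between 7 and 1 dpi 0 genes were called, with 640 at an unadjusted p under 0.05, and 7 without SNT 7 dpi replicate 1.

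Some genes had their highest or lowest values on single days, and none of those given next passed the test between neighbouring days. Mbp, myelin basic protein, measured 181 and 143 FPKM at 1 dpi, 34.7 and 28.2 at 2 dpi, 23.8 and 30.7 at 4 dpi, and 126 and 86.9 at 7 dpi. It was high on the first and last day, with a difference of -2.33 (SE 0.52) from 1 to 2 dpi and 1.92 (SE 0.52) from 4 to 7 dpi, neither past the threshold (limma adjusted p = 1). Oligodendrocyte markers as a list had a median of -0.50 from 1 to 2 dpi and 0.14 from 4 to 7 dpi. Laptm4a, a lysosomal membrane protein, measured 16.0 and 26.5 FPKM at 1 dpi, 158 and 150 at 2 dpi, and 53.3 to 137 late. Its 2 libraries of 1 dpi were the lowest of the 8 and those of 2 dpi the highest. Controls ranged from 21.8 to 147 FPKM, so low values were not particular to 1 dpi. Yipf2, a Golgi membrane protein, was listed at 0 in both libraries of 7 dpi and measured 4.62 to 18.1 FPKM before. That zero was not particular to 7 dpi, as Yipf2 was also listed at 0 in both naive libraries and all those of chronic constriction and fixed morphine. It measured 9.37 to 16.1 FPKM in the saline libraries. Spared nerve injury gave 6.83 and 0 FPKM, and escalating morphine 0, 12.7 and 11.5.

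Neuronal transcripts followed single libraries. Snhg11, a long noncoding RNA of neurons, measured 15.8 FPKM in SNT 2 dpi replicate 2 and 106 in SNT 7 dpi replicate 2, and at most 8.28 in the other 6. Meg3, a long noncoding RNA abundant in neurons, measured 25.4 and 58.3 in those 2 libraries and at most 8.71 in the others. The medians of the gene lists also varied between steps. Ribosomal protein genes had medians of -0.20 from 1 to 2 dpi, -0.96 from 2 to 4 dpi and 0.48 from 4 to 7 dpi, the middle step being the most negative. Replication genes had -0.02, 0.46 and 0.57, and histone genes -0.76, -0.54 and -0.09. Over all genes the medians were 0.00, 0.29 and 0.01.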

How the data were processed

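RNA from CD11b-selected cells of the mouse lumbar cord was sequenced, and the authors deposited 1 table of FPKM values with 30 libraries. Per the submitters' processing notes, the tools were featureCounts 1.4.6, HISAT2 2.0.5.1, DESeq2 with no version and Cufflinks 2.2.1, on mm10. Which of these made the FPKM, the annotation and any filter are not given in the sources used here. FPKM carry no read depth, so no counting interval was computed, and they were not scaled further. Of 24888 rows, 826 rows of 281 repeated symbols were left out. Testing was limited to the 10669 genes that reached 1 FPKM in 2 or more of the 8 libraries.

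Groups came from the sample titles. limma 3.58.1 in R 4.3.3 fitted log2(FPKM + 1) with 1 mean per day (4 residual degrees of freedom), a mean-variance trend and moderated two-sided p-values, with Benjamini-Hochberg adjusted p under 0.05 as the threshold; fold changes of low genes are understated on this scale. The members, gene lists, the 3 libraries left out and most tests were chosen with earlier results of these data known. Genes were named by rule: with too few called genes, the 15 lowest p in each direction among genes whose mean reached 5 FPKM in one arm (5 for the steps and the order), up to 4 of each list by p, a fixed set of genes read in any case, and the genes of counts of 5 or fewer. Hist1h2ag, Hist1h2ai, Hist1h4d, Prc1, Kif11, Tpx2 and the histone group were chosen after their values were seen. Whole-library measures were compared by exact permutation. Python 3.11.15, pandas 2.3.3, Biopython 1.88 and matplotlib 3.10.9 made the tables and figures, with transcript lengths from GENCODE M21. The fit was tested on simulated data. Alternatives were pseudocounts of 0.1 and 5, other filters, 3 scalings, fits of 23 and 30 libraries, 2 arms, array weights, no trend, robust moderation, a replicate block, the number of detected genes as covariate, other time scales, summed symbols and libraries left out.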

Additional observations from a re-analysis of the deposited data

Results flagged for a closer look

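Among 202 sets of 4 early or 4 late values of the named genes, 16 held a library far from the next at one end. Its gap, as a share of the range, exceeded Dixon's 95% critical value. Independent normal values pass it in about 1 in 20 sets. These sets share libraries and hold FPKM of chosen genes, some listed at 0, so no excess is read from the 16. In SNT 1 dpi replicate 1, Bnip3 (1.79 FPKM), Chil3 (0.443) and Ngp (29.6) lay far below the other early libraries. In SNT 2 dpi replicate 1, Erf (7.87 FPKM) was low, and Tmco6 (5.38) and Gm9855 (0.552) were the only early values above 0. In SNT 2 dpi replicate 2, H2-D1 (167 FPKM), Irf8 (41.4) and Atf3 (1.68) were low and Lars2 (1140) was high. In SNT 4 dpi replicate 1, Hist1h2ai (0.52 FPKM) was the lowest late value. In SNT 7 dpi replicate 2, Mcm4 (14.6 FPKM) and Lars2 (1030) were high, and Atp6v0c-ps2, Gngt2 and Slirp were each listed at 0.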

How the results depend on the processing

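With 2 libraries per day, unknown depth and 4 residual degrees of freedom, only large differences could be called, so counts near 0 say little about stability. Between late and early days, 3 genes were called with all 30 libraries, 3 without the 3 libraries with few genes in the fit of injury and control, and 0 to 4 leaving out 1 library. For the order over days the counts were 1 with 23 libraries, 391 with 30, 59 without the 3 and 0 to 8 leaving out 1. From 1 to 2 dpi they were 3 with 30 libraries, 2 with array weights, 1 with detected genes as covariate and 0 to 2 leaving out 1. From 2 to 4 dpi, against 2, the count was 4 with array weights, 3 with the covariate, 1 with a filter of 5 FPKM, any of the 3 scalings, no trend or a pseudocount of 0.1, 0 with a pseudocount of 5, no filter, 23 or 30 libraries or the replicate block, and 0 to 5 leaving out 1. From 4 to 7 dpi, against 1, it was 0 with a pseudocount of 5, no filter or 23 libraries, 2 with 30, and 0 to 11 leaving out 1. From 1 to 7 dpi it was 29 with 23 libraries, 264 with 30 and 0 to 7 leaving out 1. The F-test, against 1, gave 0 with a pseudocount of 5, no filter, 23 libraries or the block, 3 with 30, 5 with array weights, 2 with the covariate and 0 to 11 leaving out 1. Genes without overlap, 453 in all, numbered 1881 without the 3 libraries and 583 to 1431 leaving out 1, and ordered day means, 1732 in all, 970 to 2653. The cause of these shifts was not tested, beyond fewer libraries in some.

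Of 98 named genes, 86 kept their sign under each alternative run. Without the 3 libraries, in the fit of injury and control and in that of 2 arms, the values were -0.0723 and -0.125 for Tmem119, -0.0775 and -0.118 for Cx3cr1, -0.0814 and -0.151 for Irf8, and -0.0889 and -0.12 for Atf3. Median-ratio scaling gave -0.0656 for Cx3cr1, -0.00239 for Spp1, -0.193 for Ccl2 and -0.105 for Irf8. Quantile normalization gave -0.0852 for Spp1, -0.278 for Ccl2, 0.594 for Ctss and 0 for Cst3, and a common sum gave 0.208 for Ctss. With detected genes as covariate the values were -0.116 (Cx3cr1), -0.0272 (Itgam), -0.751 (Ccl2), -0.0474 (Irf8) and 0.125 (Ctss), and a pseudocount of 0.1 gave -0.0816 for Ccl2. Leaving out 1 library, values ran from -0.265 to 1.28 (Ccl12), -0.168 to 3.11 (Atp6v0c-ps2), -0.131 to 1.05 (Tmem119), -0.249 to 0.779 (Cx3cr1), -0.22 to 1.14 (Csf1r), -0.15 to 1.24 (Itgam), -0.102 to 0.696 (Spp1), -1.04 to 1.15 (Ccl2), -0.26 to 0.703 (Irf8) and -0.184 to 0.182 (Ctss).

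Deviations of same-numbered libraries were correlated between days with r from -0.447 to 0.179, so no pairing by number was seen. These values cannot exclude one. With the replicate block, 0 genes were called between late and early days, in the order and in the F-test, and 1 from 4 to 7 dpi.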

Other observations

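The other gene lists had no called gene between late and early days. Genes of the extracellular matrix and its remodelling had 18 positive and 6 negative differences in 24, with a median of 0.66 that was 0.02 without the 3 libraries with few genes. Complement genes had 8 and 4 in 12 with a median of 0.54, or 0.21 without the 3. Cholesterol synthesis genes had 18 and 2 in 20 with a median of 0.34, or 0.12 without the 3 and 0.00 with quantile normalization. Heat shock genes had 11 and 6 in 17 with a median of 0.23, or 0.43 without the 3 and -0.08 with median-ratio scaling. Proteasome genes had 21 and 10 in 31 (median 0.12) and splicing genes 23 and 15 in 38 (0.22), and both medians were negative with median-ratio scaling, at -0.20 and -0.10. Clock genes had 8 and 8 in 16. Border macrophage, astrocyte and neuron markers had medians of 0.13, 0.04 and 0.16, each negative with median-ratio scaling, at -0.03, -0.16 and -0.12.

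In libraries from other nerve injuries, Erf, which was above 7 FPKM on the early days after transection, measured 0.489 and 0.879 FPKM 2 days and 0.993 and 0.783 FPKM 7 days after chronic constriction, and 1.08 and 0.319 FPKM 7 days after spared nerve injury. In the 2 naive libraries Erf measured 0.848 and 0.708 FPKM, and in the 7 saline libraries 3.11 to 13 FPKM. In 2 libraries of escalating morphine it measured 4.42 and 6.64 FPKM, and in the other 5 morphine libraries 0.37 to 0.696. These values were not compared by a test.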
